A study of Mus musculus with 2 samples.

Results

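Collagen chains are the protein subunits of the collagens, the main structural proteins of the connective tissue that wraps muscle fibres and joins them to tendon. Their genes were read here from every non-control probe present on both arrays whose gene name was Col, a number, the letter a and a number. The rule gave 68 probes for 43 genes, out of 35018 gene names on the array, and these fell by chain type into 11 fibrillar, 6 basement membrane, 9 FACIT (fibril-associated collagens with interrupted triple helices) and 17 other chains. The rule itself used names alone, and no measured value, but the members were chosen with earlier results of these data known.

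The control array held total RNA, labelled with Cy3, from skeletal muscle of male CD2F1/Slc mice at 11 weeks that had received 100 µL of PBS. The C26 array held skeletal muscle RNA from male mice of the same strain and age that carried the colon 26 carcinoma, a mouse model of cancer cachexia, after 1000000 C26 cells in 100 µL of PBS had been placed under the skin of the flank. Which muscle was taken, how many mice gave RNA to an array and how long the tumour had grown are not stated in the labels. Each group was 1 array, so nothing is known of how animals vary, no test was run, and every comparison describes this pair of arrays. The error beside each log2 ratio comes from the scanner software's estimate for the spot signal; its median over all measured genes was 0.20.

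Each collagen molecule is a rope of chains wound around one another, made possible by a glycine that returns at a fixed spacing along each chain. Fibrillar collagens assemble into the fibrils that carry tension, type VI forms fine beaded filaments beside the fibre surface, type IV makes the sheet-like network of basement membranes, and FACIT chains sit on the surface of fibrils. In muscle most fibrillar and type VI collagen is made by fibroblasts and related stromal progenitors, whereas type IV is also made by muscle fibres and vessel cells.

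Of the 68 probes, 1 shows that repeat in a measured signal and is printed for that reason. It is a 60-base probe for Col15a1, on chr4:47283786-47283845 (+ strand, mm9, the build of the files), and the capitals mark the glycine codons, which fall at every 9 bases in 6 of 6 positions.

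Col15a1 probe: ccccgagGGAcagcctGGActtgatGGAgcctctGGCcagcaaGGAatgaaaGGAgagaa

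This spacing is rare on the array: 7 of 55680 probes hold it, and 2 of those 7 belong to collagens, the other being a Col25a1 probe that was not well above background on either array. The signal of the Col15a1 probe was 51.9 in control and 39.2 in C26 muscle. The sequence around the gene start is printed for Col1a2, Col3a1, Col5a3 and Col6a1, so that their start regions can be read side by side. These 4 were chosen by name from the chains past 2-fold lower in C26 muscle and are not the 4 lowest. Col6a2 at -1.54, for example, was lower than Col6a1 at -1.20. Each window runs from 250 bases before to 50 bases after the RefSeq gene start on GRCm38.p6, at chr6:4505368-4505667 (+), chr1:45311288-45311587 (+), chr9:20815018-20815317 (-) and chr10:76725995-76726294 (-). Capitals mark exact matches on either strand to 4 short motifs: CCAAT (the motif of the factor NF-Y), GGGCGG (the core of a motif for Sp1), CAGAC (a Smad-type element) and TATAAA (the usual core of a TATA box).

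Col1a2: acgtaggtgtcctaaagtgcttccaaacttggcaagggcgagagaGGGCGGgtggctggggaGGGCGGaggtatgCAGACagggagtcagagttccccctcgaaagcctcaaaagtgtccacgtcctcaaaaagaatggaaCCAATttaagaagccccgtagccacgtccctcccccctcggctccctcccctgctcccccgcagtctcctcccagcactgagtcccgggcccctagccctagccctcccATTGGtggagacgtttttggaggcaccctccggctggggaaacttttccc

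Col3a1: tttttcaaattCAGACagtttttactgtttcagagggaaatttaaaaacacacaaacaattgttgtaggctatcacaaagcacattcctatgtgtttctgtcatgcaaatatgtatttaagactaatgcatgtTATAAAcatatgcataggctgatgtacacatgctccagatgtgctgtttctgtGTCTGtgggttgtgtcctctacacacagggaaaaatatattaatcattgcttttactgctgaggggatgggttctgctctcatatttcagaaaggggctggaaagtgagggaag

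Col5a3: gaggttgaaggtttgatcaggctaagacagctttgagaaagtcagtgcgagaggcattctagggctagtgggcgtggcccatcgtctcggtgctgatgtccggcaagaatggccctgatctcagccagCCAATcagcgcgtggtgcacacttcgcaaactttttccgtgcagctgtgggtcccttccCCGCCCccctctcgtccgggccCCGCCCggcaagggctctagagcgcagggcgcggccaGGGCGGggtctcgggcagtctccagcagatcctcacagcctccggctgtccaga

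Col6a1: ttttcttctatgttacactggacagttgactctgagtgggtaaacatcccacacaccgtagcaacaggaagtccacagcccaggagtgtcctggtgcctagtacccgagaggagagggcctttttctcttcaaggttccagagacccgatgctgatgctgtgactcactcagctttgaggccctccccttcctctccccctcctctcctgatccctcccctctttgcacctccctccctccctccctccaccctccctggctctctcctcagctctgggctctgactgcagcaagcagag

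The 4 windows differ in what they hold. The Col1a2 window has 2 CCAAT, 2 GGGCGG and 1 CAGAC. The Col3a1 window has 2 CAGAC and 1 TATAAA, with neither of the others. The Col5a3 window has 1 CCAAT and 3 GGGCGG, and the Col6a1 window has none of the 4.

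The collagen chains as a whole were lower in the C26 array. A gene counted as measured if both arrays read its brightest probe as well above background, and 29 of the 43 collagen genes did. Of these 29 genes, 28 had a log2 ratio (C26 over control) below 0, and the median was -0.74, which is 1.67-fold lower; over all 19767 measured genes 43.6% were below 0 and the median was 0.04. At least 2-fold lower were 11 of 29 collagens, or 37.9%, against 1.16% of all measured genes. At least 1.5-fold lower were 19 of 29, against 4.82%. No measured collagen was 1.5-fold or 2-fold higher, where 4.36% and 1.24% of all measured genes were.

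The chains did not move evenly. Among the chains that the naming rule gave, all 11 past 2-fold were fibrillar or type VI, 11 of the 12 measured chains of these kinds, with a median of -1.41. This joint group was not among the classes set at first. Those classes placed type VI with the other chains, where its 3 measured chains were the ones past 2-fold. The 17 measured chains outside fibrillar and type VI had a median of -0.52, with 0 past 2-fold lower and 7 past 1.5-fold lower. These counts use the brightest probe of each chain. A further measured probe of Col16a1, at -1.17, and one of Col15a1, at -1.15, were past 2-fold lower. Col26a1, a collagen of neither kind that the files list under an older name outside the rule, was past 2-fold lower on both of its probes, at -2.19 and -1.15. Its C26 signals were dim, at 41.2 and 37.4. By class, the median log2 ratio was -1.45 for fibrillar chains, -0.53 for basement membrane chains, -0.56 for FACIT chains and -0.67 for the other chains, type VI included.

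**Figure D1:**
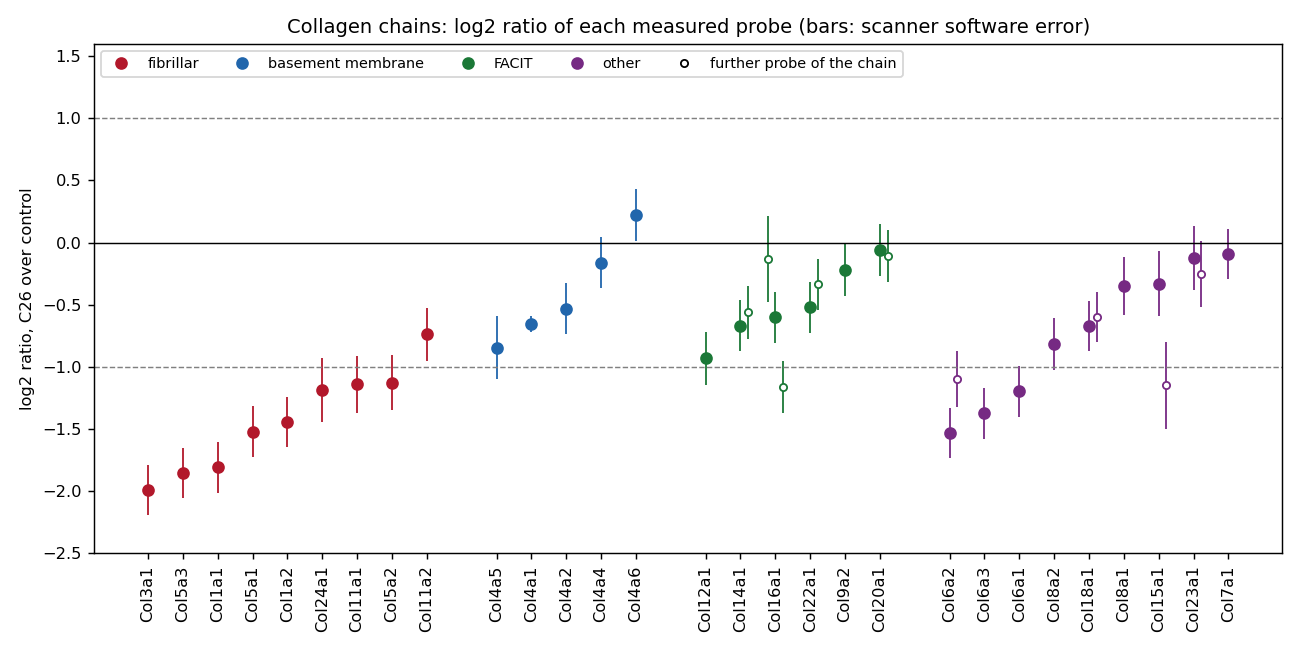
Log2 ratio of C26 over control for each measured collagen probe, grouped by class and ordered within each class; filled points are the brightest probe of a chain, open points its further measured probes, bars the scanner software's error, and dashed lines 2-fold. The 9 fibrillar chains lie between -2.00 and -0.74, the 3 type VI chains between -1.54 and -1.20, and Col4a6 at 0.22 is the one measured chain above 0.

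**Figure D2:**
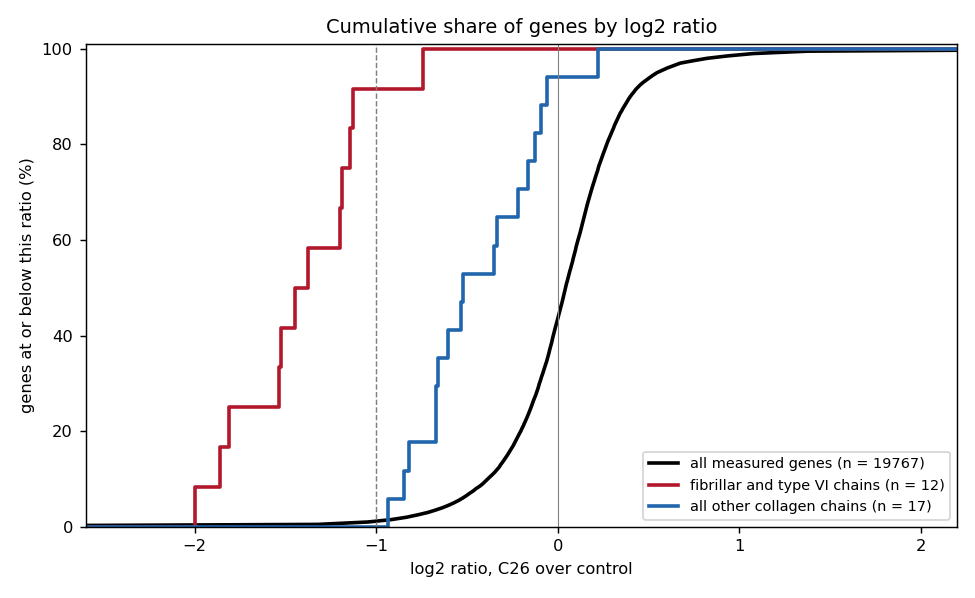
Cumulative percentage of genes (vertical axis) at or below a log2 ratio of C26 over control (horizontal axis), for all 19767 measured genes, the 12 measured fibrillar and type VI chains and the 17 other measured collagens. The curve of the fibrillar and type VI chains ends at -0.74, below which fewer than 3.0% of all measured genes lie. The curve of the other collagens starts at -0.93, its lowest chain, and from there runs between them until it ends at 0.22.

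The fibrils of muscle connective tissue and tendon are built mostly of type I collagen, and both of its chains were lower in the C26 array. The processed signal of Col1a1 was 31433 in control and 8519 in C26 muscle, a log2 ratio of -1.81 (error 0.20) or 3.51-fold lower after scaling (probe at chr11:94813115-94813174, mm9). The Col1a2 signal was 76190 in control and 26593 in C26 muscle, a log2 ratio of -1.45 (error 0.20) or 2.72-fold lower (chr6:4490619-4490678). Col3a1, the chain of type III collagen, which shares fibrils with type I in stretchable tissue, went from 8457 on the control array to 2017 on the C26 array. Its log2 ratio of -2.00 (error 0.20), 3.99-fold lower, was the lowest of the 29 measured chains and the 18th lowest of all 19767 measured genes (chr1:45405589-45405648). The C26 signals of these 3 chains were thus 25.1% to 36.7% of control after scaling.

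Type V collagen lies inside type I fibrils and helps set where they start and how thick they grow. Its Col5a1 chain gave 828 in control and 274 in C26 muscle, a log2 ratio of -1.52 (error 0.20; chr2:27892892-27892951). Its Col5a2 chain gave 138 and 60.1, a log2 ratio of -1.13 (error 0.22; chr1:45431204-45431263). Col5a3, a less widely made type V chain, gave 2538 in control and 666 in C26 muscle, 3.62-fold lower at a log2 ratio of -1.86 (error 0.20; chr9:20574592-20574651). Col1a1, Col3a1 and Col5a3 were the 3 collagens that were also at least 3-fold lower.

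The remaining measured fibrillar chains gave low signals. Col11a1 and Col11a2 belong to type XI collagen, best known from cartilage, where it nucleates fibrils. Col11a1 gave 106.98 in control and 46.1 in C26 muscle, a log2 ratio of -1.14 (error 0.23), and Col11a2 gave 186 and 106, a log2 ratio of -0.74 (error 0.21). Col24a1, the chain of type XXIV collagen known from bone, gave 82.9 and 34.6, a log2 ratio of -1.19 (error 0.26). Col11a2 was the one measured fibrillar chain short of 2-fold. Under normexp, a background correction that adds an offset of 50 to every signal, Col5a2, Col11a1 and Col24a1 stood at -0.71, -0.65 and -0.52 and no longer reached that size, whereas the other 8 chains did. Among the genes with a signal of at least 100 on both arrays, 0.634% were at least 2-fold lower, against 8 of the 22 collagens that met that limit.

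The 2 fibrillar chains left were well above background on a single array, so neither counted as measured. For such a probe the brighter array was set against the dim array's floor, the lowest level there that counted as well above background. Where the probe's own dim level was higher than the floor, that level was used. Col2a1, the main collagen of cartilage, gave 80.5 in control muscle and 14.2 in C26 muscle, the latter not well above background. That C26 signal lay over the floor, so the resulting 5.39-fold lower is the plain ratio (error 0.40 on the log2 scale) and no lower bound. Col27a1 gave 17.7 in control muscle, not well above background, and 19.5 in C26 muscle, at least 1.11-fold higher by the floor. Its plain log2 ratio of 0.21 has an error of 0.50, so no direction is read from it.

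**Figure D3:**
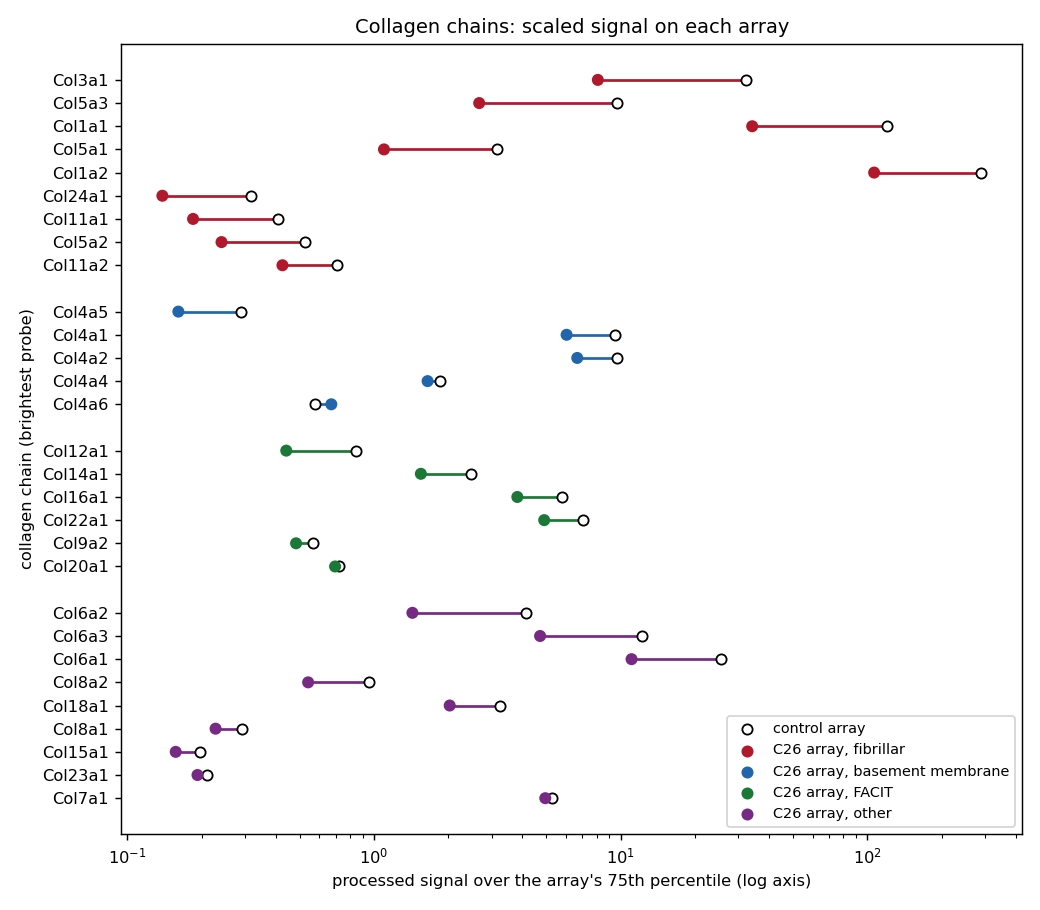
Processed signal over each array's 75th percentile (log axis) for the brightest probe of each measured collagen chain, open circles for the control array and filled circles for the C26 array, joined by a line. The C26 circle lies left of the control circle in 28 of 29 chains; the length of a line is the size of the difference, and positions of different probes are not to be compared.

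Type VI collagen surrounds each muscle fibre, and mutations in its genes cause congenital muscle disease. All 3 of its main chains were past 2-fold lower in the C26 array. Col6a1 gave 6675 in control and 2762 in C26 muscle, a log2 ratio of -1.20 (error 0.20; chr10:76171538-76171597). Col6a2 gave 1089 and 357, a log2 ratio of -1.54 (error 0.20; chr10:76058931-76058990), and its second probe gave 116 and 51.6, a log2 ratio of -1.10 (error 0.22). Col6a3 gave 3214 and 1176, a log2 ratio of -1.38 (error 0.20; chr1:92663663-92663722). The alternative chains Col6a4, Col6a5 and Col6a6 were not well above background on either array.

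The basement membrane chains of type IV collagen, which lines muscle fibres and vessels, were closer to the control level. Col4a1 was printed 10 times on each array, whose log2 signals had an SD of 0.05 in control and 0.06 in C26 muscle, and so has the most precise ratio of all members. Its mean signal was 2499.6 in control and 1506 in C26 muscle, a log2 ratio of -0.66 (error 0.06) or 1.58-fold lower (chr8:11199009-11199068). Col4a2, its partner in the common form of the network, gave 2533 and 1664, a log2 ratio of -0.53 (error 0.20; chr8:11448840-11448899). Both common chains were thus lower by less than 2-fold.

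The rarer type IV chains varied more. Col4a5 gave 76.1 in control and 40.2 in C26 muscle, a log2 ratio of -0.85 (error 0.25; chrX:138123547-138123606), which became -0.34 with normexp. Col4a4 gave 485 and 411, a log2 ratio of -0.16 that lies within its error of 0.20 (chr1:82447879-82447938). Of its further probes, 1 was above background in C26 muscle alone, at least 1.08-fold higher there by the floor, and 1 in neither sample. The log2 ratio of the former, 0.25, also lies within its error of 0.51, so neither probe gives Col4a4 a direction. Col4a6 gave 151 in control and 167 in C26 muscle, a log2 ratio of 0.22 (error 0.21; chrX:137601433-137601491). Its ratio stayed between 0.11 and 0.23 under every other normalization and background correction run. Col4a3 was not well above background on either array.

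Among the FACIT chains, 6 of 9 were measured. By their brightest probes all 6 were below 0, 3 of them past 1.5-fold lower and 0 past 2-fold, though a further probe of Col16a1 was past 2-fold. Col12a1, which lies on type I fibrils in tendon, fascia and muscle, gave 221 in control and 110.0 in C26 muscle, a log2 ratio of -0.93 (error 0.21; chr9:79446895-79446954). Col14a1, a related fibril surface chain, gave 647 and 386, a log2 ratio of -0.67 (error 0.20; chr15:55352264-55352323), and its second probe gave 159 and 103, a log2 ratio of -0.56. Both ratios lay above the fibrillar median of -1.45 and below the all-gene median of 0.04, and Col12a1 was lower than the fibrillar chain Col11a2.

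Col16a1 had 3 measured probes, and the highest and lowest of their ratios differed by more than 2 errors. The brightest gave 1519 in control and 951 in C26 muscle, a log2 ratio of -0.60 (error 0.20; chr4:129776333-129776392). The next gave 253 and 107.3, a log2 ratio of -1.17 (error 0.21; chr4:129776460-129776519). The dimmest gave 28.5 and 24.6, a log2 ratio of -0.14 (error 0.35; chr4:129756457-129756516). All 3 lie on the same side of 0, but the spread between them is 1.03 with an error of 0.40, so the size for Col16a1 depends on the probe.

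The FACIT chains nearest the control level were Col22a1, Col9a2 and Col20a1. Col22a1, known from the junction of muscle and tendon, gave 1846 in control and 1222 in C26 muscle, a log2 ratio of -0.52 (error 0.20), and its second probe gave -0.34. Col9a2 gave a log2 ratio of -0.22 (error 0.21), and the 2 probes of Col20a1 gave -0.06 and -0.11, within their errors of 0. The probes of Col9a1 lay on opposite sides of 0. The brighter stood above background in control muscle alone (28.1 against 12.3, at least 1.9-fold lower with the tumour). The other did so in C26 muscle alone (14.1 against 19.6, at least 1.11-fold higher), and its log2 ratio of 0.546 lies within its error of 0.549. Both lie near the lowest signals that counted as above background, 18.5 in control and 14.1 in C26 muscle. Col9a3 and Col19a1 were not well above background on either array.

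Outside these classes and type VI, chains of small networks, basement membrane zones and cell surfaces were measured for 6 genes, all 6 below 0 and 2 of them past 1.5-fold lower. Col8a2, a short network chain of vessels and cornea, gave 250.01 in control and 135 in C26 muscle, a log2 ratio of -0.82 (error 0.21; chr4:125991441-125991500), while its partner Col8a1 gave 76.3 and 56.9, a log2 ratio of -0.35 (error 0.23). Col18a1, a basement membrane proteoglycan chain that holds the endostatin fragment, gave 848 and 506, a log2 ratio of -0.67 (error 0.20; chr10:76514926-76514985), with -0.60 from its second probe. Col7a1, the anchoring fibril chain, gave 1384 and 1234, a log2 ratio of -0.09 that lies within its error of 0.20. The 2 measured probes of Col23a1, a transmembrane chain, gave -0.13 and -0.26, each within its error of 0.26 to 0.27.

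Col15a1, a chain that bridges basement membrane and matrix in muscle and is related to Col18a1, is represented by the glycine repeat probe printed above, with a log2 ratio of -0.33 (error 0.26). A second probe gave 48.0 in control and 20.6 in C26 muscle, a log2 ratio of -1.15 (error 0.35; chr4:47325273-47325332). The last probe overlaps that one and stood above background in control muscle alone, at least 1.77-fold lower with the tumour. The mean over both measured probes was -0.74, so the size for Col15a1 also rests on the choice of probe.

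In all, 11 collagen genes had no probe well above background on either array: Col4a3, Col6a4, Col6a5, Col6a6, Col9a3, Col10a1, Col13a1, Col17a1, Col19a1, Col25a1 and Col28a1. Nothing is read from their values. Several of them are known from other tissues, such as Col10a1 from growth plate cartilage and Col17a1 from skin. With Col2a1, Col9a1 and Col27a1, each above background on a single array per probe, they make up the 14 unmeasured genes.

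The further probes of each chain were compared with its brightest one. Of all 68 probes, 38 stood above background on both arrays, 3 in control muscle alone, 3 in C26 muscle alone and 24 on neither array. Of these 38, 37 were below 0 and 14 at least 2-fold lower, against 1.14% of the 26781 such probes on the whole array (305 probes). For 8 genes with several measured probes, all 8 had probes on the same side of 0, and Col16a1 was the 1 gene whose probes spread over more than 2 errors.

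Chains that are known to assemble into one molecule were compared with one another. For 6 of the 8 such molecules listed, all chains were measured, and in these 6 the highest and lowest chain differed by less than 2 errors. The chains of type I differed by 0.36 (error 0.29), those of type V by 0.39 (error 0.30), those of type VI by 0.34 (error 0.29) and those of type XI by 0.40 (error 0.31). The common pair of type IV differed by 0.12 (error 0.21), and the pair of type VIII by 0.47 (error 0.31). With these spot errors, differences of that size were not detectable. A further 2 molecules, not listed at first, differed by more than 2 errors. In type V with Col5a3, Col5a3 lay below Col5a2 by 0.73 (error 0.30). In type IV of Col4a5 and Col4a6, Col4a5 lay below Col4a6 by 1.07 (error 0.33). That last difference rests on a dim Col4a5 probe, and with normexp the chains lay closer, Col4a5 at -0.34 and Col4a6 at 0.11.

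Some collagen genes lie side by side in the genome, as gene order on GRCm38.p6 shows, and such neighbours were alike in some pairs and not in others. Col4a1 and Col4a2 lie head to head on chromosome 8, their start windows overlap by 78 bases, and their log2 ratios differed by 0.12. Col4a6 and Col4a5 also lie head to head, on chromosome X, with 842 bases between their windows, and differed by 1.07. With normexp that pair lay closer, at 0.11 and -0.34. Col3a1 and Col5a2, neighbours on chromosome 1, differed by 0.87 in size (error 0.30), Col3a1 being the lower. Col6a2 and Col6a1, neighbours on chromosome 10, differed by 0.34 (error 0.29).

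RefSeq start windows, 38 in all, were found for 35 of the 43 members. Each motif was found both among the chains past 2-fold lower and among the other measured chains. A chain counted if any of its windows held the motif, whereas the share over all windows counts each window once. CCAAT was present in 37.4% of all 32851 windows, in 3 of the 9 chains past 2-fold lower that had a window, and in 6 of the 15 other measured chains. GGGCGG was present in 35.7% of all windows, in 5 of 9 and in 12 of 15. CAGAC was present in 49.6%, in 6 of 9 and in 8 of 15. TATAAA was present in 13.6%, in 1 of 9 and in 1 of 15. No 2 motifs overlap in the printed windows, and a match is a run of letters, not a shown binding site.

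Proteins that fold, trim and crosslink collagen were described next, since chains need them to become fibrils. Of 31 such genes listed, 29 were measured, 21 of them below 0, with a median log2 ratio of -0.34 and 3 genes at least 2-fold lower and 0 higher; over all measured genes 43.6% were below 0 and 1.16% at least 2-fold lower, which is also the background for the lists that follow. All 3 were lysyl oxidase relatives, the enzymes that start crosslinks between collagen molecules. Lox itself, at -0.05, and Loxl3, at -0.66, did not reach that size. Loxl2 gave 1598 in control and 548 in C26 muscle, a log2 ratio of -1.47 (error 0.20), and Loxl1 gave 919 and 399, a log2 ratio of -1.13 (error 0.20). Loxl4 gave 81.5 and 30.4, a log2 ratio of -1.35 (error 0.26), which became -0.59 with normexp. At the upper end, P4hb, the disulfide isomerase that is also a subunit of prolyl 4-hydroxylase, stood at 0.38 and Colgalt1, which puts galactose on hydroxylysine, at 0.28.

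Proteins that bind collagen fibrils, such as the small leucine-rich proteoglycans, were measured for all 14 genes listed. Of these, 12 were below 0, the median was -0.52, and 1 was at least 2-fold lower. Kera, keratocan, gave 2063 in control and 650.2 in C26 muscle, a log2 ratio of -1.59 (error 0.06), and Dpt, dermatopontin, a log2 ratio of -0.92 (error 0.06). Fbln1, fibulin 1, at 0.36 and Prelp at 0.29 were the highest.

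Receptors of collagen and regulators of its genes had medians near 0. Of 12 collagen receptors, 10 were measured, with 0 past 2-fold either way and 5 on each side of 0. Itga11, the fibroblast integrin for fibrillar collagen, was the lowest at -0.95 (error 0.20), followed by Ddr2, a receptor kinase for fibrillar collagen, at -0.47. The adhesion receptors Adgrg1 at 0.78 and Adgrg6 at 0.62 were the highest, and with normexp the dimmer Adgrg6 stood at 0.30. All 19 listed regulators of collagen genes were measured, with a median of 0.05, 9 below 0 and 0 past 2-fold either way. Creb3l1, a transcription factor for collagen genes, stood at -0.76 and Tgfb2, a ligand of the TGF-beta family, at -0.39, while Smad7, an inhibitor of that pathway, stood at 0.87 and Foxc2 at 0.60. Foxc2 was dim, at 25.0 in control and 36.1 in C26 muscle (error 0.37), and stood at 0.23 with normexp.

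Of 15 genes for collagen-degrading proteases and their inhibitors, 10 were measured, 7 of them below 0, with a median of -0.40 and 2 at least 2-fold lower. Ctsk, cathepsin K, a protease that cuts fibrillar collagen, gave 2845 in control and 618 in C26 muscle, a log2 ratio of -2.13 (error 0.20). Timp1, an inhibitor of matrix metalloproteinases, gave 315 and 79.8, a log2 ratio of -1.91 (error 0.22). Timp4 at 0.70 and Timp3 at 0.12 were the highest. With normexp Ctsk stood at -1.99 and Timp1 at -1.29.

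**Figure D4:**
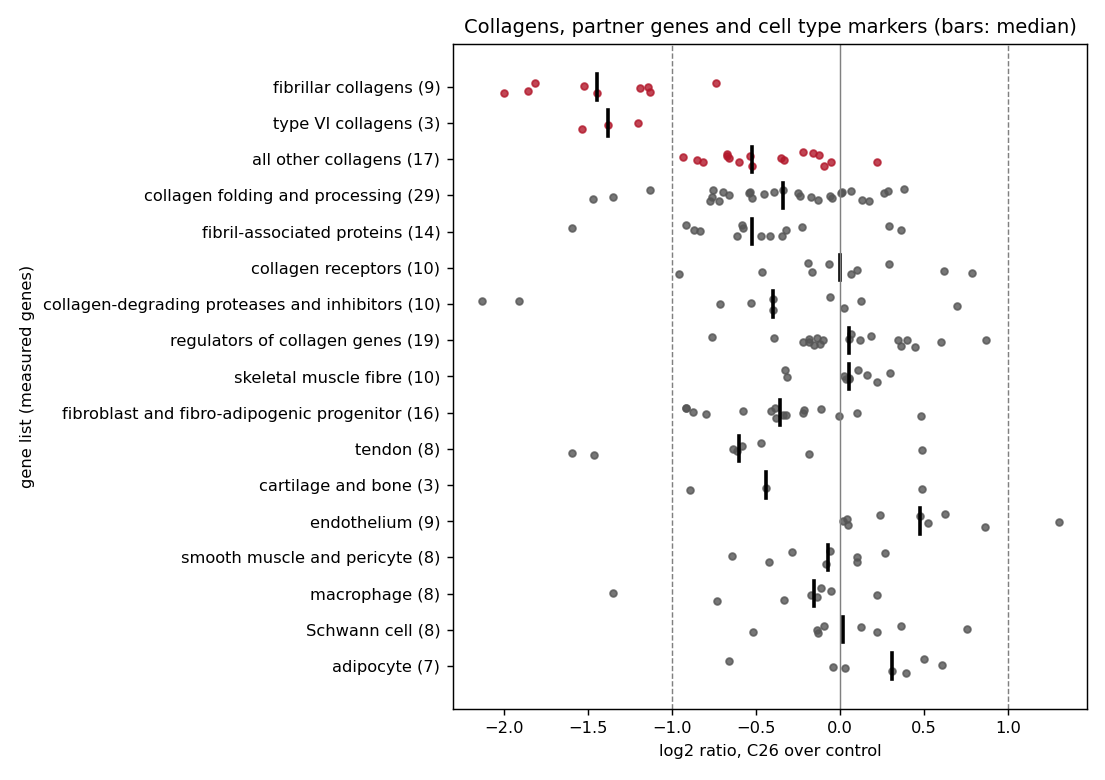
Log2 ratio of C26 over control for the measured members of the collagen groups (red), the partner gene lists and the cell type marker lists (grey), with the number measured in brackets, black bars at the medians and dashed lines at 2-fold. The fibrillar and type VI groups have medians of -1.45 and -1.38, tendon -0.60, fibroblast -0.36, skeletal muscle fibre 0.05 and endothelium 0.48.

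Markers of the cell types in muscle were read from lists of defining genes. All 10 skeletal muscle fibre markers were well above background on both arrays, from Mylpf and Myh1, both at -0.32, to Myh2 at 0.22 and Actn3 at 0.30, with a median of 0.05, and their mean scaled log2 signal was 8.96 in control and 8.99 in C26 muscle. Markers of fibroblasts and fibro-adipogenic progenitors, the stromal cells that make fibrillar collagen, had a median of -0.36, with 14 of 16 measured members below 0 and 0 past 2-fold; their mean scaled log2 signal was 3.71 and 3.34. Cd248 and Dpt were the lowest, both at -0.92, and Ly6a at 0.48 and Dpep1 at 0.10 the highest. In bulk tissue, fewer cells of a type and less RNA per cell cannot be told apart. The fibroblast markers moved the same way as the collagens and by less, and their part in the collagen result was not tested.

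Tendon markers were lower too. Of 8 measured, 7 were below 0 with a median of -0.60, the mean scaled log2 signal being 2.90 in control and 2.27 in C26 muscle. Kera at -1.59 and Tnmd, tenomodulin, at -1.46 (847 in control and 293 in C26 muscle, error 0.06) were past 2-fold lower, whereas Scx, scleraxis, stood at -0.18 and Egr1 at 0.49. Of 10 cartilage and bone markers 3 were measured, Chad at -0.89, Alpl at -0.44 and Sox9 at 0.49; Acan, Matn3, Cnmd, Bglap and Sp7 were not well above background on either array, and Matn1 and Ibsp were so in C26 muscle alone. How much tendon or other connective tissue each sample held is not stated in the labels, and the part of the tendon markers in the collagen result was not tested. Kera, Comp, Thbs4 and Fmod are in both the tendon and the fibril-associated list, Dpt, Dcn and Lum in both the fibroblast and the fibril-associated list, and Scx in both the tendon and the regulator list.

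The other cell types went in differing directions. The 9 endothelial markers had a median of 0.48, with Cldn5, a tight junction protein, at 1.30 and Vwf at 0.86. By their brightest probes Kdr at 0.01 and Emcn at 0.04 lay within their errors of 0. Kdr and Vwf each had 2 measured probes, whose mean was -0.31 for Kdr and 0.63 for Vwf, so the direction of Kdr depends on the probe. The 8 smooth muscle and pericyte markers had a median of -0.07, from Cspg4 at -0.64 and Kcnj8 at -0.42 to Myh11 at 0.10 and Abcc9 at 0.27. Of 10 macrophage markers 8 were measured with a median of -0.16; Cd68, a lysosomal membrane protein, was past 2-fold lower at -1.35 and Adgre1 stood at -0.73, while C1qc at -0.05 and Mertk at 0.22 were the highest. The 8 Schwann cell markers had a median of 0.01, from S100b at -0.52 and Pmp22 at -0.14 to Mbp at 0.36 and Ngfr at 0.75, and the 7 adipocyte markers a median of 0.31, from Lep at -0.66 and Plin1 at -0.04 to Cfd at 0.50 and Cidec at 0.61. The medians of the muscle fibre, Schwann cell, receptor and regulator lists lay within the error of a single ratio from 0, and their sign turned with the processing.

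**Figure D5:**
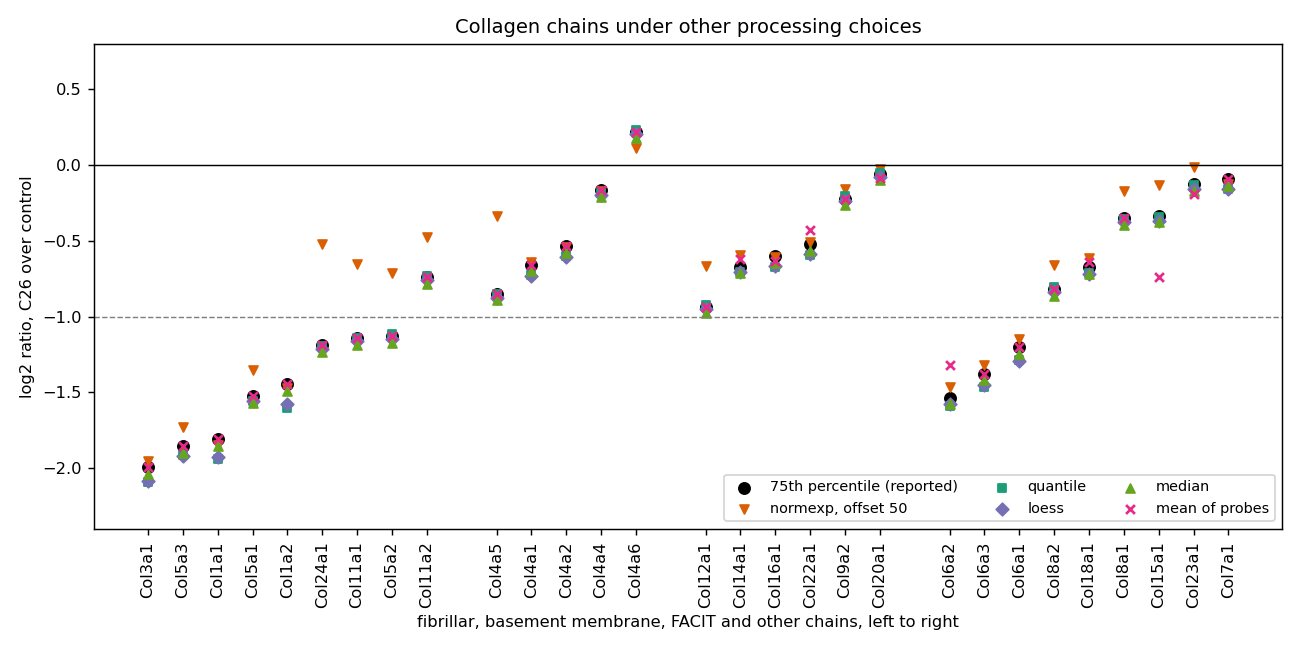
Log2 ratio of C26 over control for each measured collagen chain under the reported scaling and 5 other processing choices, from fibrillar chains on the left to other chains on the right, with a dashed line at 2-fold lower. The points of the brighter chains lie close together, while normexp (orange triangles) draws dim chains such as Col24a1, Col11a1, Col5a2 and Col4a5 toward 0; Col4a6 stays above 0 and all other chains below 0.

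As the plot of processing choices shows, the direction of the measured chains did not turn on the scaling: 28 of 29 were below 0 under quantile, median, loess and both 75th percentile scalings, with normexp, with the mean over probes and with the deposited value table. Under the reported scaling, 21 of the 29 ratios lay more than 2 errors from 0. For the rest, a sign that holds across scalings of the same arrays gives no direction beyond the error. The same 11 chains were past 2-fold lower under all of these processing choices except normexp, which kept 8 of them.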

How the data were processed

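Gene expression was measured on 2 one-colour Agilent arrays, 1 for the control sample and 1 for the C26 sample, both on 1 slide with the same scan time. The authors deposited linear spot intensities from the scanner; per the file headers they came from Feature Extraction 10.7.1.1, with the background subtracted and detrended and surrogates set for unmeasurably dim spots, while the submitters' processing notes name Agilent Feature Extraction 9.5.1.1. A deposited table of intensities per probe had a median of 19.75 in both columns, and 99.9% of its values lay within 0.01 on the log2 scale of quantile-normalized processed signals; its making is not stated in the labels. Well above background were 50.4% of non-control spots in control and 53.8% in C26 muscle, surrogates 31.9% and 25.6%, and 0 spots were saturated.

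Outlier spots were left out (110 and 91; none was a collagen spot), copies of 1 probe were averaged as log2 values, and each array's 75th percentile over non-control probes (a signal of 262 and 249) was subtracted. Printed signals are before scaling. A gene took its brightest probe, and 2-fold was the size counted. Names of 30816 of 55680 probes, and of all 68 collagen probes, matched the reference (GRCm38.p6, for names, gene order and start windows); probe positions are on mm9, and their exon or UTR was not analysed here. Calculations were tested on simulated data and used Python 3.11.15, numpy 2.4.6, pandas 2.3.3, matplotlib 3.10.9, R 4.3.3 and limma 3.58.1.

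The members and all gene lists were chosen with earlier results of these data known. Named with full values are measured fibrillar, basement membrane and type VI chains, other chains past 1.5-fold and chains whose probes disagree; of each other list, the 2 highest, the 2 lowest and those past 2-fold. Alternatives were quantile, median, loess (span 0.3) and bright-probe scaling, normexp with an offset of 50, no filter or a signal of at least 100, the mean over probes, the deposited table, and 1.5-fold and 3-fold.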

Additional observations from a re-analysis of the deposited data

How the results depend on the processing

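No paired analysis was possible because each group has 1 array. The directions of the collagen class medians held under every alternative, and the median of all genes stayed between -0.04 and 0.06. With normexp, 8 collagens were at least 2-fold lower, and all genes gave 65 lower and 131 higher; normexp moved 6 single chains beyond their error, among them Col4a5 to -0.34, Col11a2 to -0.47 and Col12a1 to -0.67. With no filter on dim probes, 13 of 43 collagens were 2-fold lower, with Col2a1 and Col9a1 added, and 2 higher; all genes then gave 1330 lower and 1587 higher, the median of the other chains was -0.39, and that of the cartilage and bone markers turned to 0.25 because unmeasured members entered. With a signal of at least 100 on both arrays, 8 of 22 collagens were lower, all genes gave 90 lower and 158 higher, and the medians were -1.67 for fibrillar chains, -1.01 for other chains and -0.67 for cartilage and bone, over fewer genes. At 1.5-fold, 19 collagens were lower and all genes gave 953 lower and 861 higher; at 3-fold, 3 collagens were lower and all genes gave 45 and 68. Col4a1, with the smallest error, moved to -0.73 under quantile normalization, loess and the deposited table, and the mean over probes moved Col6a2 to -1.32 and Col15a1 to -0.74. Signal over background limits the dim chains: the lowest signals among the 11 chains past 2-fold were 82.9 in control and 34.6 in C26 muscle.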

Other observations

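Col26a1 carries the older name Emid2 in the files and so falls outside the naming rule; it was looked up after the collagen values were known. Its 2 probes were well above background on both arrays. The brighter gave 198 in control and 41.2 in C26 muscle, a log2 ratio of -2.19 (error 0.24), and the other gave 87.5 and 37.4, a log2 ratio of -1.15 (error 0.25). Both probes were past 2-fold lower. The brighter lay below every measured chain that the rule gave, but its distance from Col3a1 at -2.00 was within its error. Both C26 signals were dim, and Col26a1 was not read with normexp. That correction took Col24a1, at 82.9 in control and 34.6 in C26 muscle, from -1.19 to -0.52. Col26a1 is neither a fibrillar nor a type VI chain, so with it counted the chains past 2-fold under the reported scaling would not all be of those kinds.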
